A study of Mus musculus with 22 samples.

Results

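Heme is built from glycine and succinyl-CoA by a short chain of enzymes that begins in the mitochondrion, passes through the cytosol and ends in the mitochondrion, where iron is inserted into the porphyrin ring. Every cell that respires makes heme, and erythroid cells make far more of it because hemoglobin carries a heme in each chain. The genes of these enzymes are transcribed by RNA polymerase II (PolII) from promoters active in most tissues, and in erythroid cells several are known targets of GATA1 and partner factors. Here 7 of them were followed by PolII ChIP-seq from mitotic arrest into G1, with CTCF present or depleted: Alas1, Alad, Uros, Urod, Cpox, Ppox and Fech. They were chosen by symbol in GENCODE vM1 (mm9) and are 7 of the 20455 protein-coding genes longer than 1 kb on chromosomes 1 to 19 and X. A gene was scored by the PolII peaks that overlapped it or the 1 kb on either side by at least 1 bp. A peak at an annotated protein-coding start was counted as a TSS peak.

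The cells were G1E-ER4, a subline of the GATA1-null mouse proerythroblast line G1E with a GATA1 fusion that needs estradiol, in which both Ctcf alleles encode a fusion to an auxin-inducible degron and mCherry and which express the TIR protein that auxin needs. Control and auxin-treated cells therefore carried the same alleles and the same nocodazole arrest (200 ng/ml), and differed in auxin, which removes the CTCF protein. All were sorted by flow cytometry, with mCherry-positive cells kept for control and mCherry-negative cells for auxin, so the arms also differed in this gate. Stages were sorted by DNA content, and prometaphase also by a stain for a mitotic antigen. Cells were taken at arrest (prometaphase, 0 min) and 60, 120 and 240 min after release (early-G1, mid-G1 and late-G1). Each condition had 3 libraries in mid-G1 and 2 in each of the other stages, 18 in all. The late-G1 control libraries are numbered 2 and 3. Nothing in the labels says whether replicates came from separate cultures, so p-values measure the spread between these libraries. The other 4 samples are inputs and were not used here.

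Prometaphase lists held 2414 to 3918 peaks and the 14 post-mitotic lists 50594 to 117125. The depth recovered from the lists was 4.94 to 5.96 reads per kb of genome in prometaphase and 4.51 to 13.3 after mitosis. The lowest value belonged to mid-G1 control replicate 1, which also had the fewest post-mitotic peaks. Of 11 erythroid progenitor markers, 10 had a TSS peak in each of the 14 post-mitotic libraries, and of 9 annotated markers of lymphoid, macrophage, neural, liver and muscle cells, 0 had a TSS peak in any of them.

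In prometaphase PolII peaks were nearly absent from the heme enzyme genes. Alas1, Urod, Ppox and Fech had no peak in gene plus or minus 1 kb in any of the 4 prometaphase libraries. Alad, Uros and Cpox had a peak in 1 library each. For Alad, whose enzyme condenses aminolevulinate into porphobilinogen, this was control replicate 1, where the TSS peak was 5.79-fold enriched over the local background, stood at rank 3195 of 3918 peaks and rested on 12 fragments at its summit. Uros, the gene of uroporphyrinogen III synthase, had a TSS peak in auxin replicate 1, at rank 1876 of 3539 with 13 fragments. Cpox, the gene of coproporphyrinogen oxidase, had a peak in the same library at rank 1928 with 11 fragments and its summit 259 bp inside the gene, which did not touch the annotated start. Of the 9689 protein-coding genes with a peak in all 14 post-mitotic libraries, 35.8% had a peak in 1 or more prometaphase libraries and 10.0% had one in all 4. A missing peak says only that the threshold of the caller was not passed.

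After mitosis all 7 genes had a peak and a TSS peak in each of the 14 libraries, from 60 min on and in both conditions. Among all 20455 genes, 47.4% had a peak in each of the 14 libraries and 34.5% a TSS peak in each. The bases of the window covered by peaks did not overlap between the 4 prometaphase and the 14 post-mitotic libraries for any of the 7 genes. For Urod, which makes coproporphyrinogen by decarboxylation, the post-mitotic libraries covered 608 to 2171 bases and the prometaphase libraries 0. For Alad the lowest post-mitotic value was 2204 bases and the highest prometaphase value 189. All 7 passed the exact two-sided permutation test of covered bases, with labels exchanged within each auxin condition (p = 0.000772, the smallest that 1296 arrangements can give; adjusted p = 0.00115 over 11866 genes). The same test called 88.3% of the genes tested, so the members' count is close to the background. The recovered depth of the prometaphase libraries was 4.94 to 5.96 reads per kb, and that of mid-G1 control replicate 1, which held a TSS peak at all 7 genes, was 4.51. The part of depth in the difference was not tested.

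**Figure D1:**
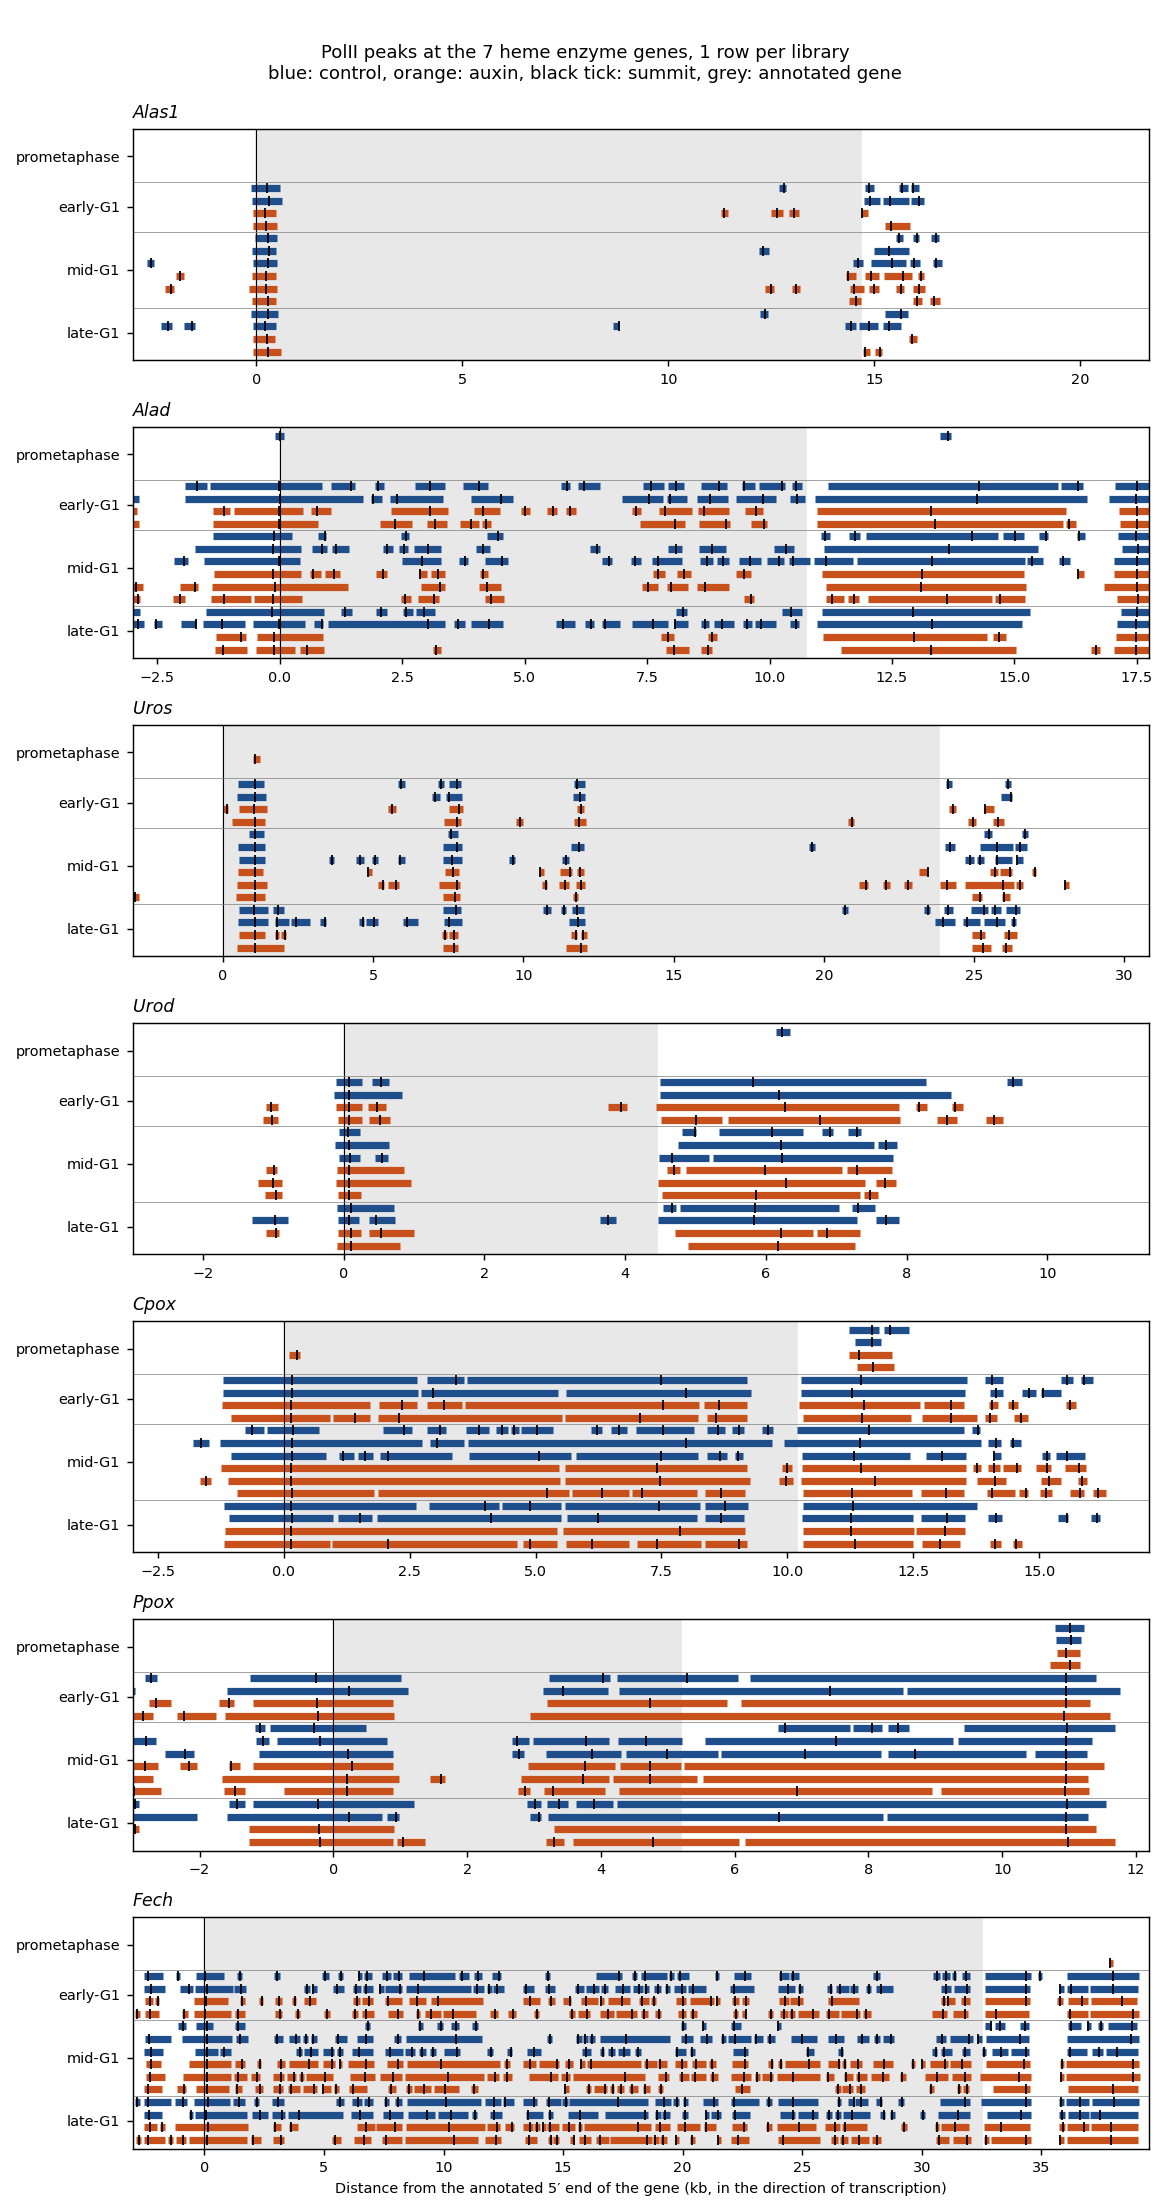
PolII peaks along each of the 7 genes (bars, 1 row per library) by distance from the annotated 5′ end in kb, with control libraries in blue, auxin libraries in orange, summits as black ticks and the annotated gene in grey. Rows of prometaphase are empty within 1 kb of the genes except for 1 library each at Alad, Uros and Cpox, while all 14 post-mitotic rows hold a peak at or near the 5′ end.

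The genes differed in the strength of their peak and in how far peaks spread over the gene, and these were not the same order. Strength was taken as the rank of a peak by fold enrichment within its library (rank 1 is the strongest), using in-window peaks, those with the summit inside gene plus or minus 1 kb. On the −log2 scale the mean rank over 14 libraries was −9.52 ± 0.60 (SD) for Uros, −10.58 ± 0.67 for Cpox, −11.38 ± 0.42 for Alas1, −11.51 ± 0.42 for Fech, −11.68 ± 0.62 for Alad, −12.74 ± 0.39 for Urod and −12.75 ± 0.39 for Ppox. Uros stood above Cpox in 11 of 14 libraries, Cpox above Alas1 in 11, Alas1 above Fech in 10, Fech above Alad in 10, Alad above Urod in 12 and Urod above Ppox in 9. Alas1, Fech and Alad lay within 1 SD of each other, and so did Urod and Ppox. Among 9371 genes with an in-window peak in all 14 libraries, Uros lay at percentile 93.9, Cpox at 84.6, Alas1 at 71.1, Fech at 68.5, Alad at 64.4, Urod at 31.2 and Ppox at 31.0.

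Spread was taken as the percent of the window covered by peaks. Its mean over the 14 libraries was 86.5% ± 8.45 (SD) for Cpox, 65.7% ± 13.5 for Ppox, 53.2% ± 17.1 for Fech, 41.6% ± 17.0 for Alad, 25.3% ± 6.05 for Urod, 10.4% ± 4.38 for Uros and 7.69% ± 2.49 for Alas1. The median of 9689 genes was 15.4%. Uros, with the strongest peak of the 7, was thus among the least covered, and Ppox, with the weakest, was at percentile 90.8 of coverage. The Uros window holds part of Bccip, and that of Ppox parts of B4galt3 and Usp21, so these values cannot be assigned to the members alone. The number of peaks in the window ran from 1 to 6 at Alas1 and from 14 to 37 at Fech, the longest of the 7 genes.

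**Figure D2:**
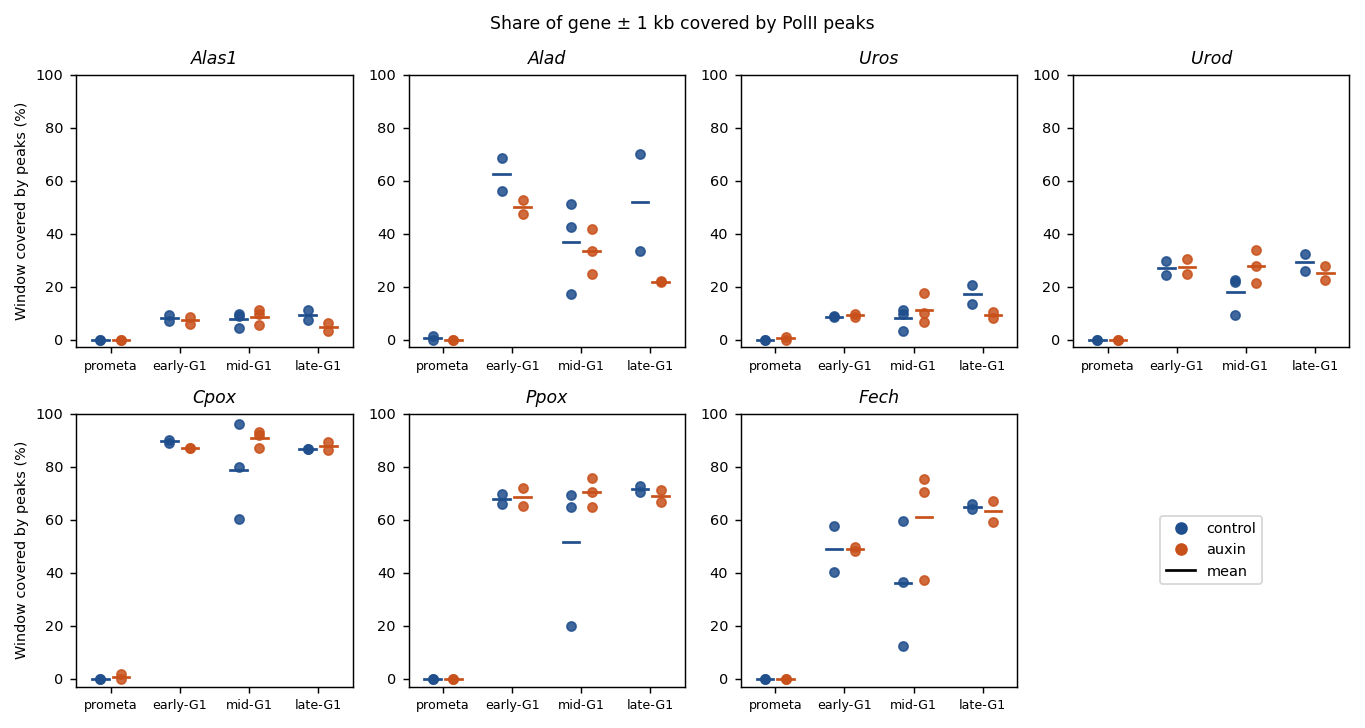
Percent of gene plus or minus 1 kb covered by PolII peaks (vertical axis) in each library (points) by stage, in blue for control and orange for auxin, with bars at group means. Cpox lies near 87% in most post-mitotic libraries and Alas1 at or under 11.3%, and the lowest post-mitotic value of Cpox, 60.2%, belongs to mid-G1 control replicate 1.

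Alas1 encodes the widely expressed aminolevulinate synthase, the first and rate-limiting enzyme of the pathway. The gene (ENSMUSG00000032786.8) lies on chromosome 9 at 106135786 to 106150457 on the minus strand. Its TSS peak was narrow, 529 to 726 bp wide, with the summit 2 to 66 bp from the nearest of 3 annotated protein-coding starts. In-window ranks in early-G1 were 3214 and 4107 in control and 3523 and 2341 in auxin libraries. In mid-G1 they ran from 1506 to 3524 with a median of 2574.5. In late-G1 they were 2706 and 1628 in control and 2639 and 2892 in auxin libraries. The 3 stages overlapped, and peaks covered only 3.14% to 8.11% of the annotated gene in the 14 libraries. The lincRNA gene 4930500F10Rik starts on the other strand and overlaps the 5′ end by 167 bp, so peaks there cannot be assigned to a strand.

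The Alas1 promoter is shown because all 14 post-mitotic TSS summits fell within it, and because it held the only perfect match to the NRF1 motif among the members with a RefSeq promoter. Promoters are the 250 bases before and 50 after a RefSeq start (GRCm38.p6 promoter table) and each printed one matched mm9 exactly once. A match to this motif was found in 0.971% of 32851 promoters. Capitals mark it. The sequence is chr9:106150012-106150311 of mm9 on the minus strand, with 73.3% GC.
Alas1: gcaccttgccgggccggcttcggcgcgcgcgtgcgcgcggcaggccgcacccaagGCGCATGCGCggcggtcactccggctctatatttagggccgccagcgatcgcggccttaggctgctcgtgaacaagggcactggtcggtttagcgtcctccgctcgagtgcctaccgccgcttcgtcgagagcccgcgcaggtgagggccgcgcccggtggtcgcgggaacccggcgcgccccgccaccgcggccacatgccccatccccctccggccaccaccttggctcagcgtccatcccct
The summits lay at positions −192 to −91 from the start at 106150061.

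Alad lies on chromosome 4 at 62170203 to 62180952 on the minus strand (ENSMUSG00000028393.4). Its TSS peak was broad, with a width of 785 to 3621 bp, and 5 to 17 separate peaks lay in its window. The 4 early-G1 libraries put its in-window peak at ranks 1596 and 2680 in control and 2516 and 1703 with auxin. In mid-G1 they ran from 2592 to 6368 with a median of 2943. Late-G1 ranks were 5723 and 3203 in control and 5553 and 5056 in auxin libraries. Each late-G1 library thus ranked the Alad peak lower than each early-G1 library, in control and in auxin cells alike. On the −log2 scale late-G1 minus early-G1 was −1.20 (SE 0.33, 95% interval −1.91 to −0.49, adjusted p = 0.0257 by limma over 9689 genes), a called fall. Coverage of the window was 56.2%, 68.4%, 52.6% and 47.5% in the 4 early-G1 libraries and 33.5%, 69.9%, 21.8% and 21.9% in late-G1, where control replicate 3, the deepest of all libraries, stood apart. The difference in covered bases was −0.77 on the log2 scale (SE 0.36, adjusted p = 0.246 by limma) and was not called.

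Uros encodes the enzyme that closes the ring with its D unit turned around, and when it fails the linear precursor closes into a useless isomer. The gene (ENSMUSG00000030979.6) lies on chromosome 7 at 140877926 to 140901755 on the minus strand and has 7 annotated protein-coding starts. The summit did not sit at the outermost start but 1052 to 1081 bp inside it, 33 to 48 bp from the nearest start. Bccip starts at 140901016 on the other strand, so that its gene overlaps that of Uros by 740 bp and both promoters share the peak. The peak stood in early-G1 at ranks 1225 and 1317 in control and 1147 and 1050 in auxin libraries. Mid-G1 ranks were between 534 and 1167 with a median of 676. By late-G1 they were 596 and 391 in control and 505 and 421 in auxin libraries. Each late-G1 library ranked the peak higher than each early-G1 library. Late-G1 minus early-G1 was 1.32 on the −log2 rank scale (SE 0.26, 95% interval 0.77 to 1.88, adjusted p = 0.00343 by limma), a called rise. How much of it belongs to Uros and how much to Bccip cannot be told apart.

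The Uros promoter at the RefSeq start 140900978 is shown because it also contains the Bccip start and because it held the only match among the members to the CTCF core motif, the factor depleted here. The motif was found in 8.61% of 32851 promoters. Capitals mark it. The sequence is chr7:140900929-140901228 of mm9 on the minus strand, with 60.3% GC.
Uros: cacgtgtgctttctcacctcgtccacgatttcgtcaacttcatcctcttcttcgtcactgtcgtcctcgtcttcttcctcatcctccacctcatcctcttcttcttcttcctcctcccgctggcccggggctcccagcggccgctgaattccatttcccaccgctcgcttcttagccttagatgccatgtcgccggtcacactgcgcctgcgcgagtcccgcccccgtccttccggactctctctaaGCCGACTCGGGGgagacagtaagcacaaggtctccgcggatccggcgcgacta
The 14 TSS summits lay 275 to 304 bases past this start, outside the printed sequence, and auxin did not move the rank of the peak beyond its spread (0.29, SE 0.20, adjusted p = 0.704 by limma).

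Urod lies on chromosome 4 at 116662570 to 116667018 on the minus strand (ENSMUSG00000028684.8), the shortest of the 7 genes. Its TSS summit was 64 to 105 bp past the only annotated protein-coding start. In-window ranks in early-G1 were 5880 and 5865 in control and 5185 and 5514 in auxin libraries. In mid-G1 they ran from 5644 to 11486 with a median of 8895. In late-G1 they were 5610 and 8365 in control and 5418 and 5304 in auxin libraries. The early-G1 and late-G1 values overlapped, and 5 of 6 mid-G1 libraries lay below every early-G1 library. For in-window peaks mid-G1 minus early-G1 was −0.60 (SE 0.25, adjusted p = 0.123 by limma) and was not called. Hectd3 starts at −904 bp from the Urod 5′ end on the other strand and Zswim5, on the other strand too, ends 701 bp past the 3′ end of Urod, so peaks at both ends of the window could also belong to neighbours.

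Cpox, which carries out the oxidative decarboxylation that precedes protoporphyrinogen, lies on chromosome 16 at 58670321 to 58680504 on the plus strand (ENSMUSG00000022742.5). No annotated gene lies within 12 kb of it, so that peaks over the gene and beyond its 3′ end have no other annotated source. Peaks covered 55.0% to 95.2% of the annotated gene in the 14 libraries. The TSS summit was 136 to 181 bp past the start. In-window ranks in early-G1 were 1191 and 1224 in control and 1588 and 862 in auxin libraries. In mid-G1 they ran from 701 to 3050 with a median of 1384. In late-G1 they were 2926 and 1540 in control and 1359 and 3023 in auxin libraries. The groups overlapped, and late-G1 minus early-G1 for in-window peaks was −0.80 (SE 0.39, 95% interval −1.63 to 0.020, adjusted p = 0.196 by limma).

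The Cpox promoter is shown because it was the only one of the members with matches to the GATA motif at 2 places of 1 promoter. The cells derive from a GATA1-null line and carry a GATA1 fusion that needs estradiol. The motif was searched as AGATAA and TGATAA on both strands and was found in 18.6% of 32851 promoters. Capitals mark TTATCA 86 bases before the start and TTATCT 4 bases past it, both on the opposite strand. The sequence is chr16:58670071-58670370 of mm9 on the plus strand, with 58.7% GC.
Cpox: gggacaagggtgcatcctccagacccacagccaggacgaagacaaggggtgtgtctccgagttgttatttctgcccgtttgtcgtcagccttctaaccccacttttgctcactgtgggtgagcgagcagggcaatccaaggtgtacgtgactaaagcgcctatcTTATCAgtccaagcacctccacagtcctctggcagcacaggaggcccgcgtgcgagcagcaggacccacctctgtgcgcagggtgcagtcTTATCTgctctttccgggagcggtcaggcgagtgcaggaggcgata
A second RefSeq start of Uros also had 1 match. The CACCC box (CCACCC on both strands) matched at Alas1 alone, against 31.5% of all promoters, and TATAAA on both strands matched at 0 of 6 members, against 13.6%. These letters describe the windows and say nothing of binding.

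Ppox, the oxidase that makes protoporphyrin, lies on chromosome 1 at 173206121 to 173211317 on the minus strand (ENSMUSG00000062729.5), between close neighbours. Usp21 ends upstream within the 1 kb flank, on the same strand, and B4galt3, on the other strand, overlaps the 3′ end by 907 bp. The summit of the TSS peak took either of 2 places, 206 to 291 bp before the annotated start in 8 libraries and 208 to 272 bp past it in 6. Its in-window peak ranked 7674 and 6311 in control and 7479 and 6999 in auxin libraries of early-G1. Mid-G1 ranks were 6768, 9846 and 7968 in control and 3755, 5193 and 5065 with auxin. Those of late-G1 were 8569 and 10400 in control and 6474 and 7013 in auxin libraries. In mid-G1 and late-G1 each auxin library ranked the peak higher than each control library of its stage, and in early-G1 the conditions overlapped. This was picked out after the values were seen, with 2 or 3 libraries per group, and its share over all genes was not counted. The in-window auxin contrast was not called in mid-G1 (0.81, SE 0.28, adjusted p = 0.383) or late-G1 (0.49, SE 0.35, adjusted p = 0.781 by limma).

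Fech, the gene of ferrochelatase, which inserts the iron, lies on chromosome 18 at 64616204 to 64648720 on the minus strand (ENSMUSG00000024588.7). Its TSS summit was 24 to 157 bp from the nearest start. In-window ranks in early-G1 were 3430 and 2380 in control and 3422 and 2658 in auxin libraries. In mid-G1 they were 1473, 2851 and 2524 in control and 4293, 3833 and 2805 in auxin libraries. In late-G1 they were 3565 and 2025 in control and 3965 and 3023 in auxin libraries. The stages overlapped, and late-G1 minus early-G1 was −0.055 (SE 0.30, adjusted p = 0.929 by limma). Coverage of the window ranged from 12.3% in mid-G1 control replicate 1 to 75.5% in mid-G1 auxin replicate 2, the widest range of the 7 genes.

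**Figure D3:**
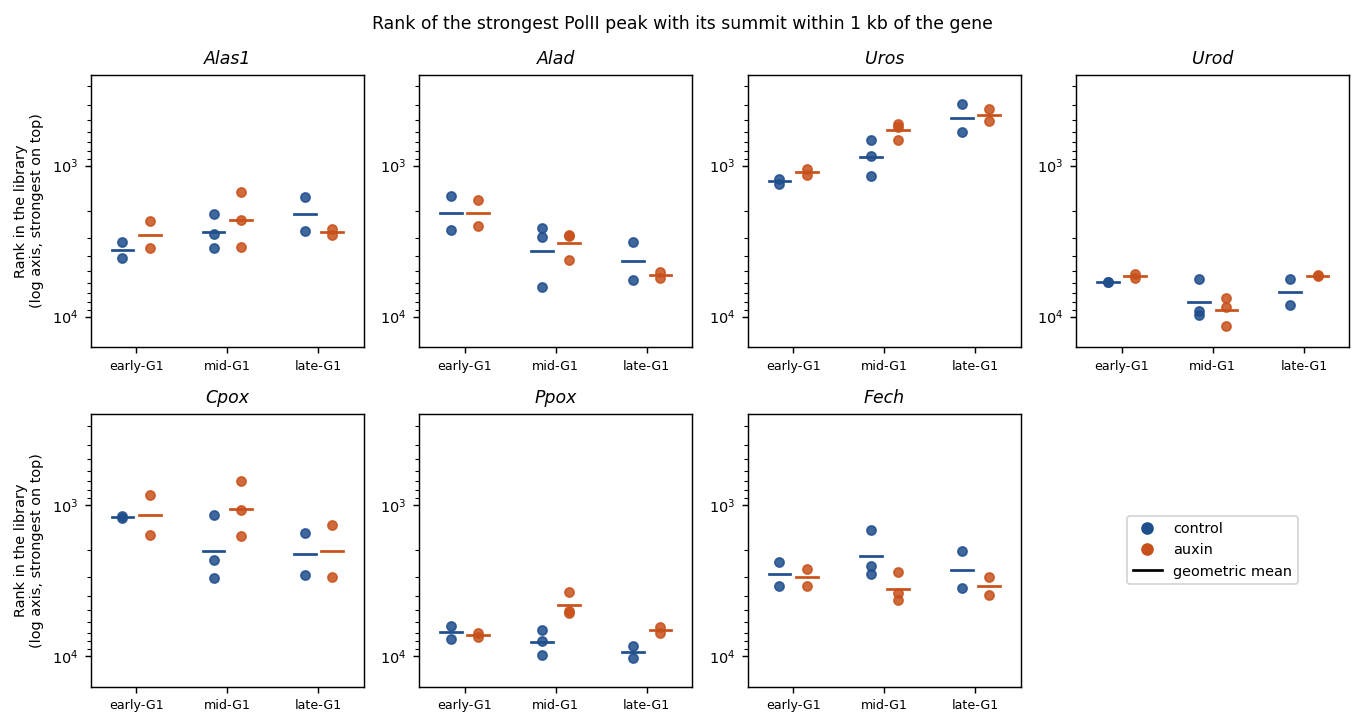
Rank of the strongest in-window PolII peak in each post-mitotic library (points, log axis with rank 1 at the top) by stage, in blue for control and orange for auxin, with bars at geometric means. Uros climbs from ranks of 1050 to 1317 in early-G1 to 391 to 596 in late-G1, and Alad falls from 1596 to 2680 to between 3203 and 5723.

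To compare stages and conditions, the rank of the strongest peak that overlapped the window was tested with limma on the −log2 scale over 9689 genes. Between early-G1 and late-G1, 2 of the 7 genes were called, Uros higher and Alad lower, where 13.3% of all genes tested were called. Early-G1 and late-G1 libraries did not overlap for the same 2 genes, as for 19.7% of all genes. Between early-G1 and mid-G1, 0 members were called and 13.4% of all genes. Uros came closest with 0.72 (SE 0.24, adjusted p = 0.0568 by limma). Between mid-G1 and late-G1, 0 members were called and 8.23% of all genes. With in-window peaks, Uros and Alad were again the called members between early-G1 and late-G1, against 12.8% of 9371 genes. By covered bases, 0 members were called between early-G1 and late-G1 and 3.58% of all genes. With covered bases centred on the median gene of each library, Alad was called lower (adjusted p = 0.0145) and Uros higher (adjusted p = 0.0368 by limma). This fit called 2616 of all 9689 genes. With ranks turned into normal scores, neither rank call held (adjusted p = 0.0719 for Alad and 0.197 for Uros), and with log2 fold enrichment that of Uros did not (adjusted p = 0.0911 by limma). The Alad call was lost when any of 5 libraries was left out, early-G1 control replicate 1, early-G1 auxin replicate 2, late-G1 control replicate 2 or either late-G1 auxin library (adjusted p from 0.0633 to 0.116 by limma). The Uros call held in each of these 14 fits (highest adjusted p = 0.0186 by limma).

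For 6 of the 7 genes the rank did not differ between auxin and control cells by more than the spread between libraries, and the value of Ppox, which did, came from peaks with the summit at a neighbouring gene. Averaged over the 3 stages, auxin minus control was 0.069 (SE 0.24, adjusted p = 0.960) for Alas1, −0.049 (SE 0.26, adjusted p = 0.975) for Alad, 0.18 (SE 0.20, adjusted p = 0.827) for Urod, 0.059 (SE 0.30, adjusted p = 0.974) for Cpox and −0.38 (SE 0.23, adjusted p = 0.632 by limma) for Fech. The lowest bound among the 95% intervals of these 5 genes and Uros was −0.88, at Fech, and the highest 0.71, at Uros. Of all genes tested 0.867% were called. In early-G1, mid-G1 and late-G1 taken separately 0 members were called, beside 0.0929%, 0.217% and 0.258% of all genes. For the difference of the auxin contrast between stages the count was 0 of 7, beside 0.0206% of all genes. At an unadjusted p under 0.05 by limma Ppox alone passed in each of the separate stages. Of all 9689 genes, 390 passed in early-G1, 877 in mid-G1 and 861 in late-G1. With in-window peaks the 95% interval of Ppox was −0.79 to 0.68 in early-G1 and −0.25 to 1.23 in late-G1. That of mid-G1, 0.21 to 1.41, was the only one of these to exclude 0. By covered bases 0 members and 0% of all genes were called for auxin, while 359 of 9689 genes had an unadjusted p under 0.05 and 0 members did. For 0 members did the 7 control and 7 auxin libraries separate, as they did for 0.516% of genes.

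Ppox was the member called for auxin, with 3.27 on the −log2 rank scale (SE 0.71, adjusted p = 0.0416 by limma). Its strongest overlapping peak ranked 7674 and 6311 in early-G1 control, 6768, 8391 and 5834 in mid-G1 control and 235 and 10400 in late-G1 control libraries. In auxin libraries it ranked 693 and 491 in early-G1, 341, 367 and 5065 in mid-G1 and 202 and 138 in late-G1. The 7 ranks under 1000 came from peaks with the summit 10930 to 10988 bp from the Ppox 5′ end, next to the start of B4galt3 at 10858 bp. In 6 auxin libraries and 1 control library the caller had joined that peak to the Ppox 3′ end, and in 2 further control libraries of mid-G1 the strongest peak also had its summit outside the window. Restricted to in-window peaks, the auxin contrast of Ppox was 0.41 (SE 0.19, 95% interval 0.011 to 0.82, adjusted p = 0.528 by limma), and 0 members were called, beside 0.790% of 9371 genes. The largest in-window contrast of Ppox was in mid-G1, 0.81 (SE 0.28, adjusted p = 0.383 by limma). The strongest overlapping peak had its summit outside the window in 1 or more libraries for 17.8% of all genes, and among the members for Ppox (9 of 14 libraries), Cpox (6) and Urod (2).

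**Figure D4:**
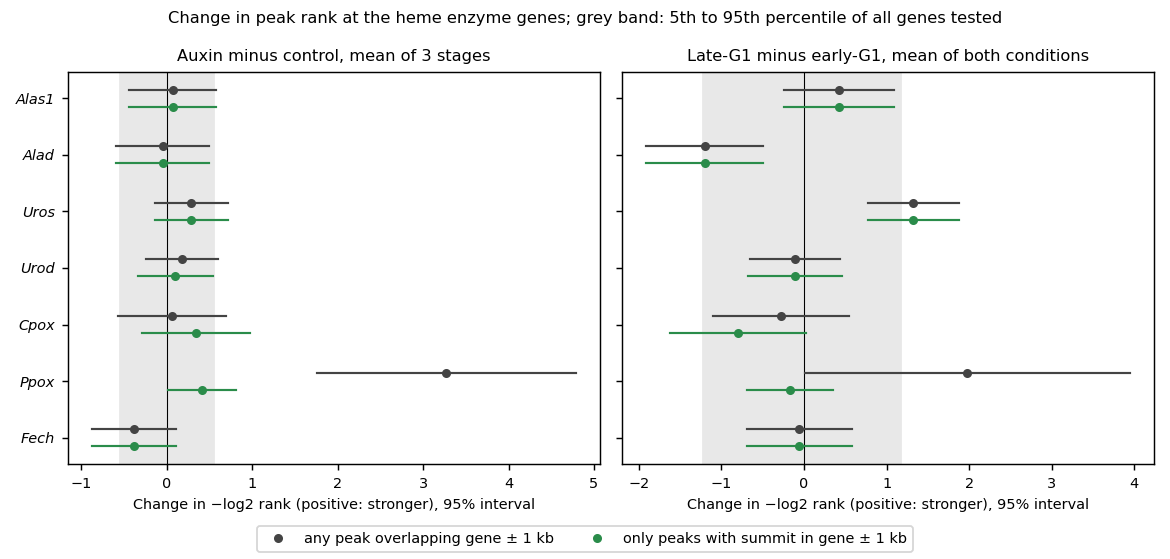
Change in −log2 rank (horizontal axis, positive when the peak is stronger) with 95% intervals for auxin minus control and for late-G1 minus early-G1, using any peak that overlaps gene plus or minus 1 kb (dark) or only peaks with the summit inside it (green). The grey band spans the 5th to 95th percentile of all genes tested, and the dark Ppox auxin point at 3.27 moves to 0.41 once summits outside the window are left out.

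PolII is known to run past the end of a gene before it is released, and peaks in the 5 kb past the annotated 3′ end were found at all 7 genes in each of the 14 post-mitotic libraries. The share of all genes with such a peak in each of these libraries was not counted. The extent of these peaks differed between the 7 genes. Mean coverage of these 5 kb was 94.5% ± 12.5 (SD) at Ppox, 84.6% ± 9.01 at Alad, 73.4% ± 7.01 at Cpox, 65.5% ± 9.37 at Fech, 62.7% ± 12.9 at Urod, 21.6% ± 13.9 at Uros and 14.03% ± 7.58 at Alas1. At Ppox the stretch lies within B4galt3 and at Urod mostly within Zswim5, and at the other 5 genes it holds no other annotated gene. Alad was covered more past its 3′ end than over its own length, of which 34.5% ± 18.9 (SD) was covered. The strongest peak with its summit in these 5 kb had a higher fold enrichment than the TSS peak of the same library in 6 of 14 libraries at Cpox and in 2 at Urod. At Ppox only 7 of 14 libraries had such a summit, and in 2 of these it was above the TSS peak. In the remaining Ppox libraries the joined peak described above had its summit beyond these 5 kb, so no comparison was made.

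The downstream coverage changed with time in opposite ways. At Alad it was 91.2%, 96.4%, 95.7% and 95.6% in the 4 early-G1 libraries and 85%, 83.7%, 72.2% and 71.5% in late-G1. At Urod it was 76.1%, 82.6%, 75.7% and 77.2% in early-G1 and 55.7%, 63.2%, 51.7% and 47.4% in late-G1. For both genes, and for Cpox, each early-G1 library was above each late-G1 library, as for 14.3% of all genes. At Uros the values were 7.66%, 7.40%, 11.4% and 11.9% in early-G1 and 33.4%, 39.9%, 17.1% and 19.6% in late-G1, so that each late-G1 library was above each early-G1 library, as for 5.35% of all genes. These 4 genes were picked out after their values were seen, and the separation was not tested.

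Cpox had a feature that the other members lacked, a peak past its 3′ end in all 4 prometaphase libraries. The summit was 1506 and 1499 bp past the 3′ end in control replicates 1 and 2 and 1244 and 1516 bp in auxin replicates 1 and 2. The fold enrichment was 8.75, 7.66, 8.65 and 11.8 and the rank 927, 1260, 925 and 356, in the same order of libraries. All 4 were in the upper part of lists of 2414 to 3918 peaks, while none of these libraries had a peak at the Cpox start. After mitosis the strongest downstream peak of Cpox had its summit 1079 to 1553 bp past the 3′ end, a range that holds the prometaphase summits, with a fold enrichment of 22.7 to 43.9. Such a peak in all 4 prometaphase libraries was found at 4.68% of the 9689 genes, and at 2.53% without a TSS peak in any of the 4. Among the other members, Alad and Urod had a downstream peak in prometaphase control replicate 1 alone.

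Other genes of heme and iron metabolism were taken from a list of 26, of which 25 were annotated and 23 had a peak in all 14 post-mitotic libraries. Alas2, the erythroid aminolevulinate synthase and a classical GATA1 target, had a TSS peak in 0 of 14 libraries, although some peak overlapped its window in 13. For auxin 1 of 23 was called, beside 0.867% of all genes tested. This was Hmox1, the inducible heme oxygenase that breaks heme down, with 0.97 (SE 0.21, adjusted p = 0.0365 by limma). The medians over the 23 genes were 0.045 for auxin and 0.071 for late-G1 minus early-G1, beside 0.0074 and −0.0015 over all genes tested. In prometaphase 5 of these 23 genes had a peak in all 4 libraries, beside 10.0% of the 9689 genes. Among them were the heme transporter gene Slc48a1, the transferrin receptor gene Tfrc and the ferritin genes Fth1 and Ftl1, named here after their values were seen. Tfrc, Fth1 and Ftl1 had a TSS peak in all 4 prometaphase libraries, and Slc48a1 in 0.

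The genes whose rank pattern over the 14 libraries was most like that of each member were sought among all genes tested, leaving out genes within 100 kb. By Pearson's r of −log2 rank these were Tufm for Alad (0.909), Trex1 for Uros (0.904), Khsrp, with the same values at Slc25a41, for Urod (0.889), Tbc1d10c for Ppox (0.889), Ggta1 for Cpox (0.874), Vegfa for Alas1 (0.856) and Fech with Vps13c (0.847). All points share the same 14 libraries and their depths, and the values are a description. Between members r ran from −0.65 (Ppox with Fech) to 0.52 (Alad with Cpox). The pattern of Ppox rests on the joined peak described above. Those of Cpox and Urod include summits outside the window in 6 and 2 of 14 libraries.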

How the data were processed

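RNA polymerase II ChIP-seq was carried out in 18 libraries of G1E-ER4 CTCF-AID-mCherry cells. The authors aligned reads to mm9 with Bowtie2 (2.2.9), removed reads of low mapping quality, duplicates and blacklisted regions with SAMtools (0.1.19) and bedtools (2.27.1), and called peaks per library with MACS2 (2.1.0) at a q-value cutoff of 0.01 against input of the same stage. Each deposited list gives, per peak, its enrichment relative to local background (fold, a linear ratio), the −log10 p-value and −log10 q-value and a whole-number score (unused here) from the authors’ caller. Read totals were not used. Solving the fold enrichment and p-value of each peak for its pileup gave whole numbers (tolerance 0.02) for 100% of peaks, and hence fragments per summit and depth.

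Ranks are per library by fold enrichment. Genes with a peak in all 14 post-mitotic libraries (9689) were fitted in limma 3.58.1 (R 4.3.3) with 6 group means, on −log2 rank or log2 covered bases, with Benjamini-Hochberg adjustment over all genes and calls at 0.05. The fit was tested on simulated data. Covered bases in prometaphase were compared by an exact permutation test (Python 3.11.15, numpy 2.4.6, scipy 1.17.1, pandas 2.3.3). The members and lists were chosen with earlier results of these data known. All 7 members are named, of the other pathway genes at most 8 (called ones first, then in list order) except where stated and except items that are not reported here, and for each member the most similar genes by Pearson's r. Promoters are from RefSeq (GRCm38.p6), where 6 of 7 members had an entry. Intervals cover the spread between libraries only, and fragment counts include no molecular identifiers.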

Additional observations from a re-analysis of the deposited data

How the results depend on the processing

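Of the tests above, that of covered bases against prometaphase called 7 of 7 members under the stricter peak threshold, without flanks and without each library in turn. The Ppox auxin call rested on the joined peak. The number of members called for auxin fell from 1 to 0 with normal scores, ranks among genes, ranks among merged regions, TSS peaks only, no flanks, summits inside the window and the replicate block, and was 0 to 1 when libraries were left out, lost in 12 of 14 fits. Between early-G1 and late-G1 the 2 calls became 0 with normal scores and 1 with log2 fold enrichment, rose to 3 with merged regions (Ppox added), and were 1 to 3 without single libraries. Between early-G1 and mid-G1 the count of 0 became 1 with ranks among genes (Uros) and 2 with merged regions (Ppox and Uros), and 0 to 1 without single libraries, as did the counts for late-G1 minus mid-G1 (1 without late-G1 control replicate 3) and for auxin in late-G1 (1 without late-G1 control replicate 2), both through Ppox. By covered bases 2 members were called between early-G1 and late-G1 once values were centred (Alad and Uros). Over all genes, the normal score left 13 auxin calls against 84 and 334 calls between early-G1 and late-G1 against 1285. For early-G1 and late-G1, log2 fold enrichment called 1368 of 9689 genes, merged regions 1456 of 9900 and centred covered bases 2616 of 9689. For early-G1 and mid-G1, ranks among genes called 1126 of 9689 genes and merged regions 1442 of 9900. The causes were not tested.

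Same-numbered control and auxin libraries deviated from their group means with correlations of 0.034 to 0.27 (6 pairs). For libraries with different numbers the correlations ran from −0.23 to 0.13 (11 pairs). Within early-G1 and within late-G1 they were of equal size and differed only in sign, because deviations in such small groups mirror each other. The ranges overlapped, so whether the numbers pair the libraries could not be decided. With the replicate block the auxin contrast was 0.11 for Alad, −0.029 for Cpox and, in covered bases, 0.11 for Uros, and late-G1 minus early-G1 in covered bases was 0.037 for Urod. Late-G1 minus early-G1 of Ppox was −0.17 with TSS peaks only and with summits inside the window. In covered bases it was 0.12 for Urod and 0.12 for Cpox when centred, 0.29 for Urod without flanks and −0.0016 for Ppox at the stricter threshold. Leaving out single libraries gave auxin contrasts of −0.053 to 0.19 for Alas1, −0.19 to 0.091 for Alad, −0.14 to 0.21 for Cpox and, in covered bases, −0.25 to 0.047 for Uros. It gave late-G1 minus early-G1 contrasts of −0.26 to 0.031 for Urod, −0.26 to 0.15 for Fech and, in covered bases, −0.099 to 0.067 for Urod. The part of depth in the number of peaks per list was not tested.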
